A study of Homo sapiens with 4 samples.

Results

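Hepatocyte identity genes encode the products by which a liver parenchymal cell is usually recognised: plasma proteins, liver enzymes, liver transcription factors and hepatocyte surface proteins. The list held 39 genes, given by name with no threshold on a measured value, of which 37 had at least 1 named probe among 19090 genes measured. No probe was paired with HNF4A, the nuclear receptor at the centre of the liver transcription network, or with NR1H4, the bile acid receptor. The signal of neither could be read, and both genes were used only in the promoter search. The genes were described on 4 arrays of human cells labelled HepG2, a line from a liver tumour, all grown in RPMI medium with serum and transfected with a small RNA duplex by the same reagent, INTERFERin. One array came from cells given a mimic of the microRNA miR-214 (miR-214 mimic). An array each came from cells given siPVT1-1 or siPVT1-2, separate siRNA duplexes named for PVT1, a long RNA that codes for no protein. The last came from cells given a control duplex that matches no human sequence (NC). The series title places PVT1 and miR-214 in hepatocellular carcinoma. With 1 array in each group the differences had no replicate check, no p-value could be given, and precision was limited by the number of arrays. Less RNA per cell and fewer cells holding an RNA cannot be told apart in such bulk samples.

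A hepatocyte secretes most of the proteins of blood plasma and clears drugs, bile acids and glucose precursors through enzymes that few other cells make. These genes are switched on together by a small set of factors, among them HNF1, HNF4A, the FOXA family and CEBPA, which bind close to the start of many liver genes. HepG2 cells are known as a hepatoma line that secretes many of these plasma proteins, including albumin and alpha-fetoprotein.

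Promoters are shown for the members that hold a core of the HNF1 element close to the start. RefSeq promoter sequences (GRCh38.p14, 250 bases before to 50 after the gene's start) were at hand for 26 of the 39 genes. The HNF1 core GTTAAT, searched on both strands, was present in 9 of the 26 (34.6%) and in 1882 of all 27305 promoters (6.89%). The other 17 of the 26 did not hold it in this window, and other starts of these genes were not searched. Other motifs searched the same way were the HNF4 core CAAAGT, in 5 of 26 (19.2%) and in 3282 of all 27305 promoters, TATAAA in 8 (30.8%) and 3264 of all, and CCAAT in 14 (53.8%) and 9747 of all (35.7%). For the HNF1 core, in 5 promoters the match began between 70 and 40 bases before the start, against 246 of all promoters (0.901%). Those 5 are printed here from 80 bases before the start to 20 bases after it, with the core, or its reverse complement ATTAAC, in capitals. The promoter of FOXA3, which has no such match and whose TATAAA, beginning 30 bases before the start, is in capitals, is printed last as a contrast. Each sequence runs 5′ to 3′ on the gene's own strand, and a match of letters is a description and not a shown binding site. In ALB the core began 61 bases before the start, in FGA 52, in FGB 51, in NR1H4 53 and in APOH 49.
ALB, chr4:73404207-73404306, plus strand: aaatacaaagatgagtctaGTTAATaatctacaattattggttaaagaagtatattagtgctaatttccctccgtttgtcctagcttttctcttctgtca
FGA, chr4:154590723-154590822, minus strand: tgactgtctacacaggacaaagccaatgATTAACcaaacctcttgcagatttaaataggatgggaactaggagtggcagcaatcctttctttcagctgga
FGB, chr4:154562900-154562999, plus strand: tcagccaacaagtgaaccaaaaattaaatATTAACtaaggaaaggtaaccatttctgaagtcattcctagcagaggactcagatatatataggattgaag
APOH, chr17:66229396-66229495, minus strand: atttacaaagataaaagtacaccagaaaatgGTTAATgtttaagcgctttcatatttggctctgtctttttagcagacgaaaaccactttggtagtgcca
NR1H4, chr12:100503280-100503379, plus strand: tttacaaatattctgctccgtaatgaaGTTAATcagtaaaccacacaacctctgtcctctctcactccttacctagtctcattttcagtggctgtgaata
FOXA3, chr19:45864246-45864345, plus strand: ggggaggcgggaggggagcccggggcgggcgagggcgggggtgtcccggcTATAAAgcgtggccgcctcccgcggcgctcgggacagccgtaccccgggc

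The mimic is identified by the microRNA's mature strands, shown with the seed (bases 2 to 8) in capitals; no source used here says which strand it carries.
hsa-miR-214-3p: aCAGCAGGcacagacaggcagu
hsa-miR-214-5p: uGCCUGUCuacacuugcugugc

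The first question was whether these arrays carry a hepatocyte signal at all, and by the probes at hand it was low. Deposited intensities were quantile-normalized, values below 64 were raised to 64, the log2 was taken, and a gene was read by its brightest probe. The signal of each gene was then ranked among all 19090 genes, so that percentile 100 is the brightest. A rank of signal is not an amount of transcript, since the signal also depends on the probe. The median of the 37 genes stood at percentile 29.4 by mean over the arrays, and on single arrays at 30.1 with the miR-214 mimic, 30.4 with siPVT1-1, 30.9 with siPVT1-2 and 32.4 with NC. By mean over the arrays the members ran between percentiles 7.17 and 73.0, and 0 of 37 passed percentile 75. By this mean there were 10 members at or below percentile 20, 14 between 20 and 40, 6 between 40 and 60, and 7 between 60 and 80. On single arrays the range was wider, from percentile 3.9 with siPVT1-1 to 76.3 with NC.

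Olfactory receptor genes, a family used mainly by sensory neurons of the nose, gave a yardstick for dim probes. The 342 olfactory receptor genes had a median percentile of 28.7, and 18 of the 37 hepatocyte genes lay below that median. Olfactory receptors reached a log2 level of 12.56 at their 95th percentile, which 23.2% of all genes exceeded and 0 of 37 hepatocyte genes did. Comparisons between arrays used genes whose mean log2 level was above 9.72, the median of all probes. Of the hepatocyte genes, 12 passed this filter and 25 (67.6%) did not, against 44.1% of all genes under it. Of the olfactory receptor genes 101 (29.5%) also passed, so the filter is not a detection limit.

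**Figure D1:**
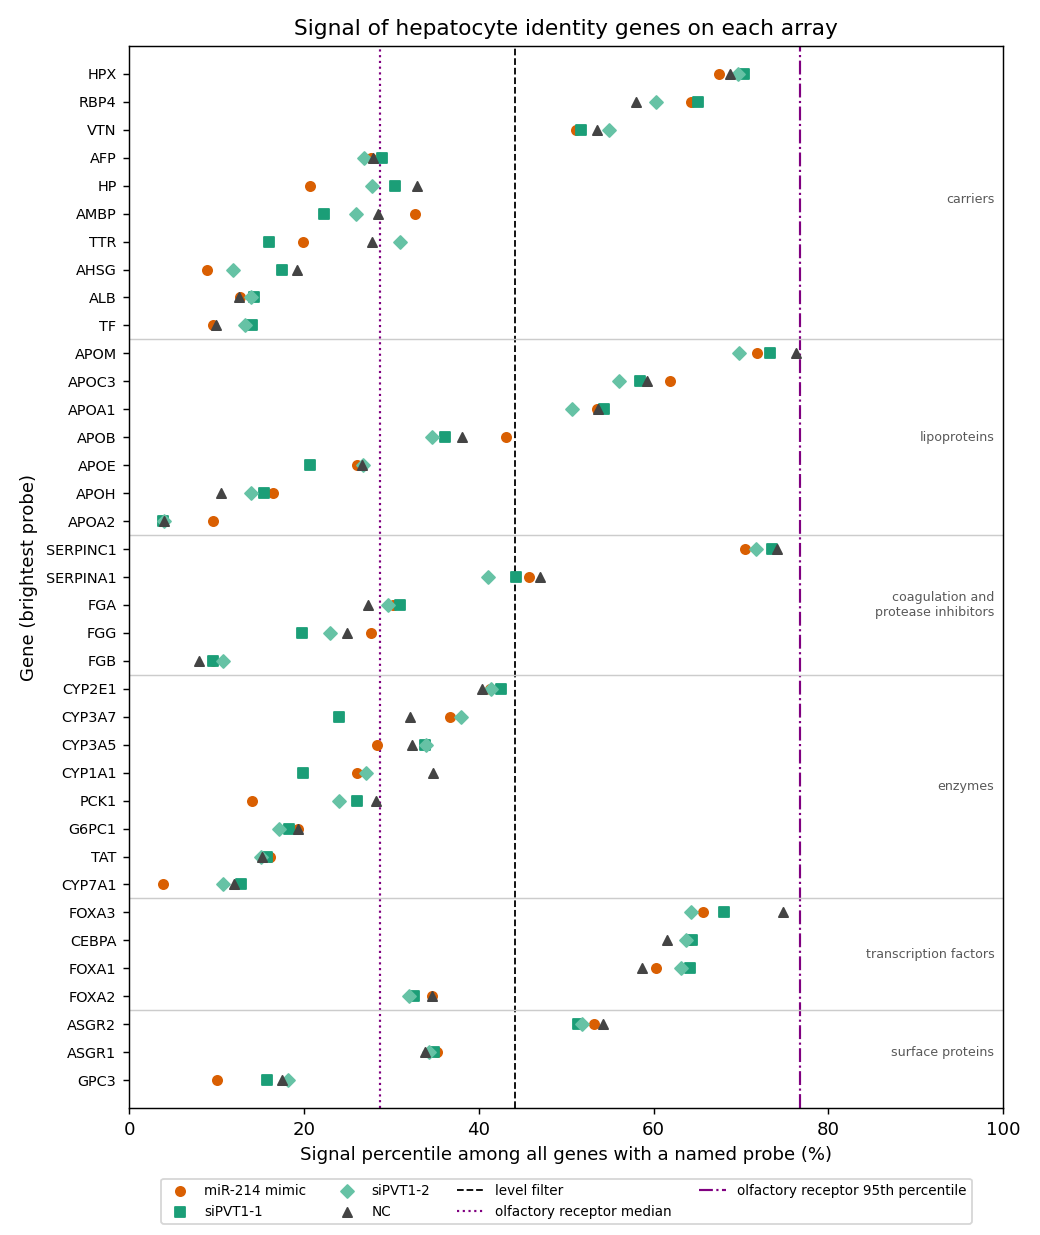
Signal percentile (x axis, among all genes with a named probe) of 37 hepatocyte identity genes by their brightest probe on the miR-214 mimic, siPVT1-1, siPVT1-2 and NC arrays, grouped by role. The dashed line is the level filter, and the purple lines are the median and 95th percentile of olfactory receptor genes by mean level. The genes span percentiles from below 10 to above 70, and the 4 arrays mostly lie close together for a given gene.

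The cumulative curves of signal show the same ranking over whole lists. The curve of the hepatocyte identity genes ran near that of the olfactory receptor genes around the filter, and the curve of all genes lay to the right of both there.

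**Figure D2:**
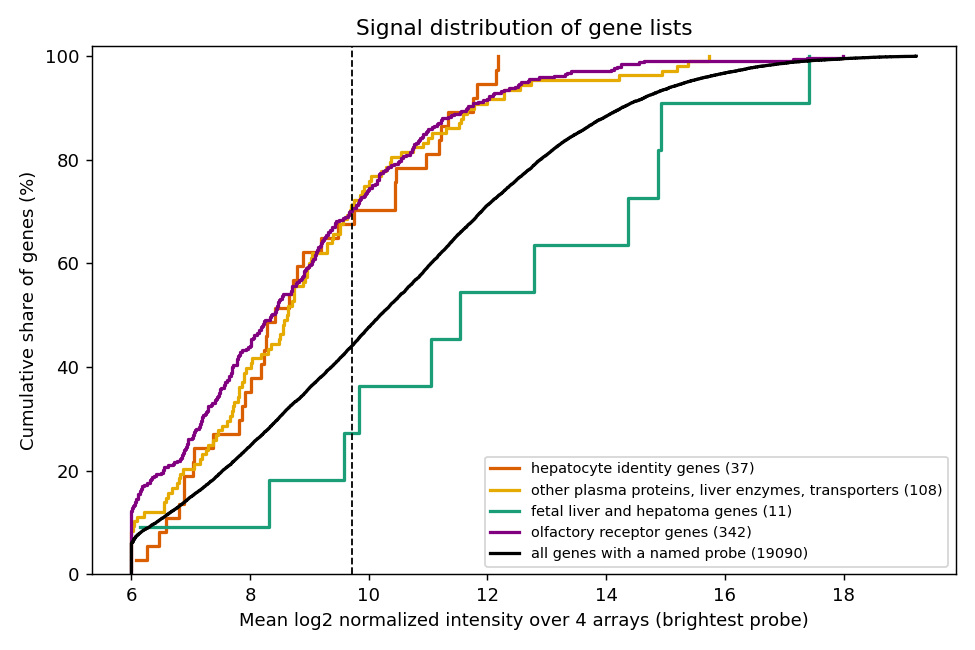
Cumulative share of genes (y axis, percent) by mean log2 normalized intensity over 4 arrays (x axis) for 37 hepatocyte identity genes, other plasma protein, liver enzyme and transporter genes, fetal liver and hepatoma genes, 342 olfactory receptor genes and all 19090 genes. The dashed line is the level filter at 9.72. At that line 67.6% of the hepatocyte identity genes and 44.1% of all genes lie to the left.

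Blood carrier proteins were mostly dim. Albumin (ALB), the main plasma protein, had deposited intensities of 105 with the miR-214 mimic, 121 with siPVT1-1, 99.8 with siPVT1-2 and 123 with NC, at percentile 13.2. Alpha-fetoprotein (AFP), the fetal albumin relative and a hepatoma marker that lies next to ALB in the genome, had 296, 334, 259 and 357 in the same order, at percentile 27.8. Both genes were close on all 4 arrays: ALB spanned 1.67 percentile points and AFP 2.09. The iron carrier transferrin (TF, percentile 11.4), the mineral-binding fetuin gene AHSG (13.9), the thyroxine carrier transthyretin (TTR, 23.3), the protease inhibitor precursor gene AMBP (27.3) and haptoglobin (HP, 27.7), which binds free haemoglobin, were also under the filter.

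A trio of carriers stood above it. The haem scavenger hemopexin (HPX) had intensities of 3249 with the mimic, 3882 with siPVT1-1, 3673 with siPVT1-2 and 3711 with NC, at percentile 69.2. The retinol carrier RBP4 had 2709, 2824, 2096 and 2001, at percentile 62.0. Vitronectin (VTN), an adhesive plasma glycoprotein, had 1220.3, 1308, 1505 and 1570.0, at percentile 52.9. None of these spread over more than 7.01 percentile points across the arrays.

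Lipoprotein genes covered the widest range of signal of any role. The HDL protein gene APOM was the brightest of all 37 members, with 4324 with the mimic, 4721 with siPVT1-1, 3688 with siPVT1-2 and 5989.8 with NC (percentile 73.0). The lipase inhibitor gene APOC3 had 2335, 1916, 1622 and 2144 (58.9). APOA1, the main HDL protein gene, had 1420.5, 1502, 1166 and 1578 by its brighter probe (53.1), and 1009, 1165, 971 and 1023 by its second. APOB, the scaffold of LDL and VLDL, lay under the filter at percentile 38.0, as did the remnant ligand APOE (25.0) and the phospholipid-binding APOH (13.8). APOA2, another HDL protein gene, was the dimmest member at percentile 7.17 and lay at the floor on the siPVT1-1, siPVT1-2 and NC arrays. APOH, whose promoter holds the HNF1 core shown above, had 136 with the mimic, 133 with siPVT1-1, 99.8 with siPVT1-2 and 99.4 with NC.

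The clotting genes split in the same way. The fibrinogen chains FGA, FGB and FGG, whose genes neighbour each other and whose products form one clot protein, stood at percentiles 29.4, 8.89 and 23.8. FGB, for instance, had intensities of 76.2 with the mimic, 79.4 with siPVT1-1, 75.1 with siPVT1-2 and 75.4 with NC. Antithrombin (SERPINC1), an inhibitor of thrombin, stood at percentile 72.6, with 3915, 4784, 4185 and 5184 by its brighter probe. The 4 measured genes with the HNF1 core close to the start, ALB, FGA, FGB and APOH, were under the filter, as were 67.6% of all members. The elastase inhibitor alpha-1-antitrypsin (SERPINA1) lay just above the filter at 44.4, with 898, 847, 654 and 1078.

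Of the 8 enzyme genes, 0 passed the filter. The cytochrome P450 genes stood at percentile 41.3 for the ethanol-metabolising CYP2E1, 32.9 for the fetal drug-metabolising CYP3A7, 32.3 for CYP3A5, 26.8 for the dioxin-inducible CYP1A1 and 10.4 for CYP7A1, the rate-limiting enzyme of bile acid synthesis. CYP3A5 and CYP3A7 are close relatives, so shared hybridisation between them is possible and was not tested. The gluconeogenesis genes PCK1 and G6PC1 stood at 22.7 and 18.3, and tyrosine aminotransferase (TAT), a glucocorticoid-inducible enzyme, at 15.4.

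The transcription factors had the highest median percentile of any role, 62.6 over 4 measured genes. FOXA3, a pioneer factor of liver genes, had 2937 with the mimic, 3378 with siPVT1-1, 2633 with siPVT1-2 and 5427 with NC, at percentile 68.3. CEBPA, a driver of hepatocyte differentiation, had 2696, 2730.2, 2547 and 2440.0, at percentile 63.5. FOXA1, another pioneer factor, had 2125, 2689, 2456 and 2081, at percentile 61.6. FOXA2 stood under the filter at 33.5. On the cell surface, the asialoglycoprotein receptor subunit ASGR2 had 1391, 1279.9, 1247 and 1633 (52.8), while its partner subunit ASGR1 (34.5) and the oncofetal heparan sulfate proteoglycan GPC3 (15.2), a marker of liver cancer, lay under the filter.

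Several genes were read by more than 1 probe, and the probes did not always give the same picture. In all 47 probes covered the 37 genes, and 13 of the probes passed the filter. Among 9 genes with several probes the gap between the brightest and dimmest probe had a median of 9.13 percentile points among all probes. For SERPINC1 it was 65.7 points: the second probe had 22.4 with the mimic, 79.4 with siPVT1-1, 37.6 with siPVT1-2 and 134 with NC. For CYP3A5 it was 33.3 points, with both further probes at the floor on every array after normalization. The brightest CYP3A5 probe had 308 with the mimic, 450 with siPVT1-1, 413 with siPVT1-2 and 459 with NC. SERPINA1 followed with 27.6 points, and the other genes differed by 11.5 points or less. APOA1 was the 1 gene with both of its probes above the filter.

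**Figure D3:**
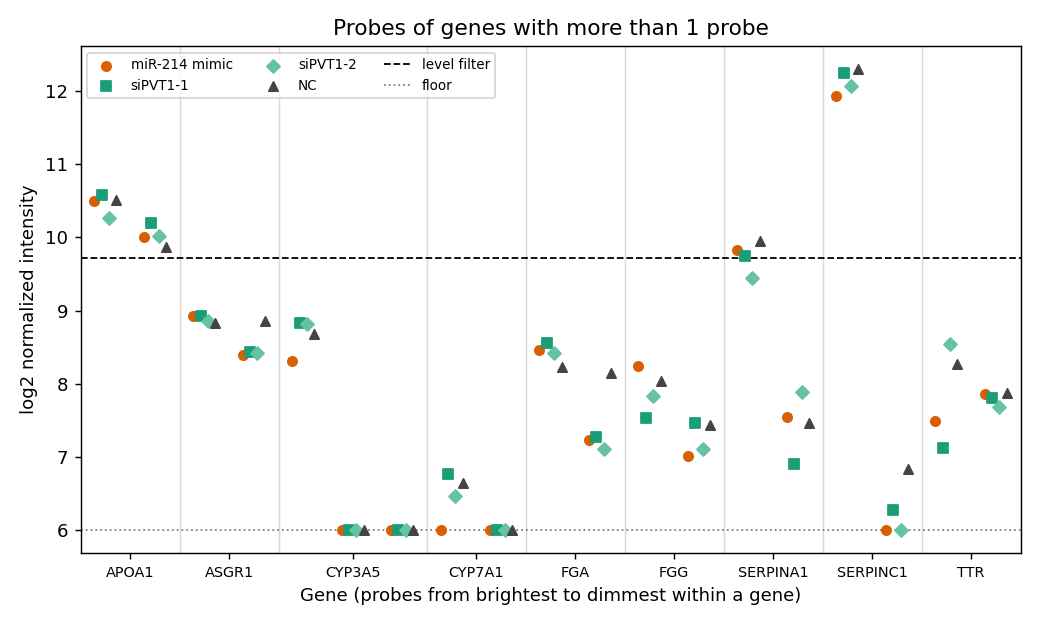
log2 normalized intensity (y axis) of each probe of the 9 genes with more than 1 probe, on the miR-214 mimic, siPVT1-1, siPVT1-2 and NC arrays. The dashed line is the level filter and the dotted line the floor. The SERPINC1 probes lie near 12 and near the floor, while the APOA1, ASGR1 and TTR probe pairs lie closer to each other.

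Further hepatocyte genes outside the list were read the same way to see how far the low signal reached. Of 59 other plasma protein genes with a probe 14 passed the filter, of 37 other liver enzymes 13, of 12 membrane transporters 4, and of 18 other liver transcription factors 11; their median percentiles were 30.9, 36.4, 29.1 and 56.0. A few were very bright. The first enzyme of the urea cycle, CPS1, had 29049 with the mimic, 28011 with siPVT1-1, 27579 with siPVT1-2 and 43456 with NC (percentile 93.4), and complement C3 had 46722, 28992, 32479 and 43986 (94.4). The urea cycle enzyme ASS1 reached percentile 96.1 and the acute phase factor CEBPD 97.7. C4BPB, a chain of a complement regulator, stood at 89.7 by 1 probe and at the floor by its second.

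The 11 genes listed for fetal liver and hepatoma were brighter as a list, with 8 above the filter and a median percentile of 65.8. SPINK1 (42.5), LIN28B (28.3) and SALL4 (7.94) lay under the filter. The markers AFP (27.8) and GPC3 (15.2) were counted among the members instead and were dim, so the list does not speak for all such genes. The imprinted noncoding RNA H19 had 166826 with the mimic, 193135 with siPVT1-1, 194204 with siPVT1-2 and 154603 with NC, at percentile 99.1, and its second probe was bright too. IGF2BP3, an oncofetal RNA-binding protein gene, stood at 93.4 and the tetraspanin gene TSPAN8 at 93.1. Among aryl hydrocarbon receptor targets, set beside CYP1A1, 5 of 7 passed the filter. The P450 gene CYP1A2, which neighbours CYP1A1, stood at percentile 95.1, while the quinone reductase NQO1 stood at 17.1.

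**Figure D4:**
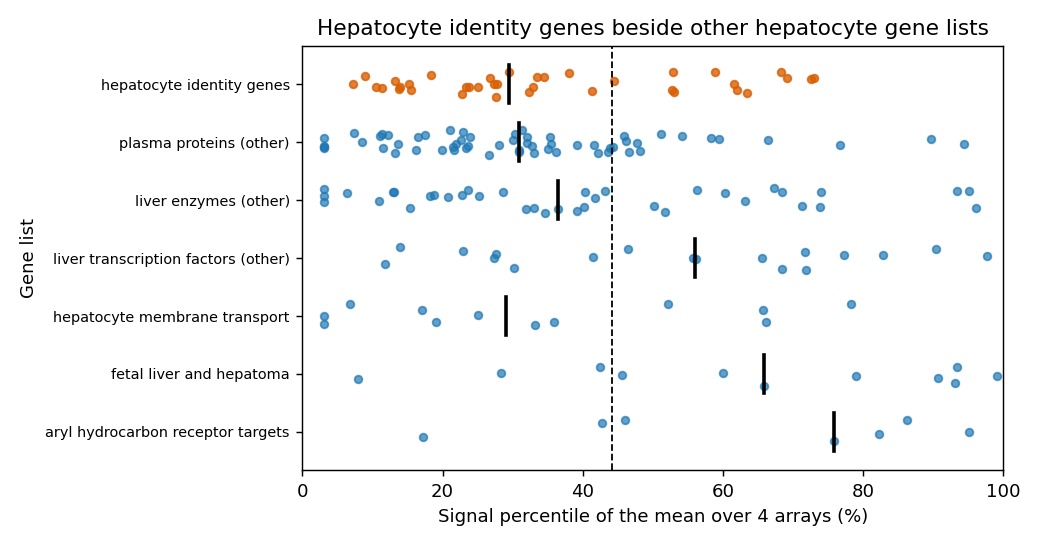
Signal percentile (x axis) of each gene, by mean over 4 arrays, in the hepatocyte identity list and in 6 other gene lists; black bars are medians and the dashed line is the level filter. The hepatocyte identity genes, which include AFP and GPC3, have a median of 29.4 and no member above percentile 75. The fetal liver and hepatoma list, which leaves AFP and GPC3 out, has a median of 65.8 and runs from 7.94 to 99.1.

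The label of the cells was set against markers of other cell types. The hepatocyte markers used for this were 16 of the 37 members and so repeat part of the result above: 3 of these 16 passed the filter (median percentile 25.6), and 9 of the other 21 members did, up to percentile 73.0. In the other lists 4 of 12 fibroblast markers passed (37.4), 3 of 10 endothelial (39.4), 3 of 8 blood cell (18.7), 5 of 8 squamous (59.8), 2 of 9 intestinal (20.6), 1 of 6 lung (23.3) and 0 of 5 kidney markers (23.1). The brightest of these were the matrix genes LUM (97.9), COL5A1 (93.9) and DCN (91.0), and KRT14 (82.8) led the squamous list. Other members of the same lists were dim. In the fibroblast list COL3A1 and POSTN lay at the floor, with COL6A3 at 6.44 and COL1A2 at 13.4, and in the squamous list KRT5 stood at 11.1. The low signals of ALB and AFP are at odds with the secretion of albumin and alpha-fetoprotein known of HepG2 cells. The part that the identity of the cells, other cells or the choice of probes had in the hepatocyte signal was not tested.

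The second question was what the duplexes altered in these genes. The level of each gene on a treated array was set against NC, as a difference in log2 normalized intensity, with 2-fold or more in either direction counted. All differences from NC share the 1 control array. Of the 12 members above the filter, 0 passed 2-fold in either direction with the miR-214 mimic, siPVT1-1 or siPVT1-2. Of all genes above the filter, 4.79% passed it with the mimic, 2.96% with siPVT1-1 and 2.53% with siPVT1-2, so that a list of 12 would hold few or none at the background rate. Between the siPVT1-1 and siPVT1-2 arrays 0.497% of all genes above the filter and 0 of 12 members were 2-fold apart. The median difference of the 12 from NC was -0.12 with the mimic, -0.06 with siPVT1-1 and -0.23 with siPVT1-2, against -0.02, 0.01 and -0.01 over all genes above the filter. Signs of such small medians depended on the setting: with each array centred on its median the siPVT1-1 value was 0.01, and with the mean of a gene's probes it was 0.04 for siPVT1-1 and 0.013 for siPVT1-2. Between the siPVT1-1 and siPVT1-2 arrays the median of the 12 was 0.19, against 0.04 over all genes above the filter.

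FOXA3 was the member above the filter furthest from NC on every treated array. Its intensity of 5427 on the NC array stood above the 2633 to 3378 of the other 3 arrays, with differences of -0.84 for the mimic, -0.62 for siPVT1-1 and -0.96 for siPVT1-2. None of these reached 2-fold, although with intensities as deposited the siPVT1-2 difference was -1.04. FOXA3 had 1 probe, and the high value was on the single control array. The other transcription factors above the filter stood above NC: FOXA1 at 0.12, 0.46 and 0.36, and CEBPA at 0.22, 0.25 and 0.18. FOXA2, under the filter, stood at -0.01, -0.18 and -0.26.

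Among the secreted proteins above the filter, APOM stood at -0.44 with the mimic, -0.30 with siPVT1-1 and -0.63 with siPVT1-2, again with its highest value on NC. SERPINA1 stood at -0.12, -0.21 and -0.50 by its brighter probe. Its second probe, under the filter, stood at 0.08, -0.56 and 0.42, so the sign differed between the probes with the mimic and with siPVT1-2. RBP4 stood above NC, at 0.52, 0.59 and 0.19. Over all genes above the filter, the SD of the log2 difference from NC was 0.49 with the mimic, 0.43 with siPVT1-1 and 0.43 with siPVT1-2. Between the siPVT1 arrays it was 0.29.

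The remaining secreted and surface proteins above the filter lay within 0.37 of NC on each treated array. Antithrombin (SERPINC1) stood at -0.37 with the mimic, -0.06 with siPVT1-1 and -0.23 with siPVT1-2. APOC3 stood at 0.21, -0.06 and -0.27, and the brighter APOA1 probe at -0.03, 0.07 and -0.26. The second APOA1 probe, also above the filter, stood at 0.14, 0.33 and 0.15. HPX stood at -0.13, 0.15 and 0.08, VTN at -0.23, -0.14 and 0.11, and ASGR2 at -0.11, -0.24 and -0.22. In each of APOC3, HPX and VTN the sign differed between treated arrays, and in APOA1 it differed between the probes with the mimic and with siPVT1-2.

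**Figure D5:**
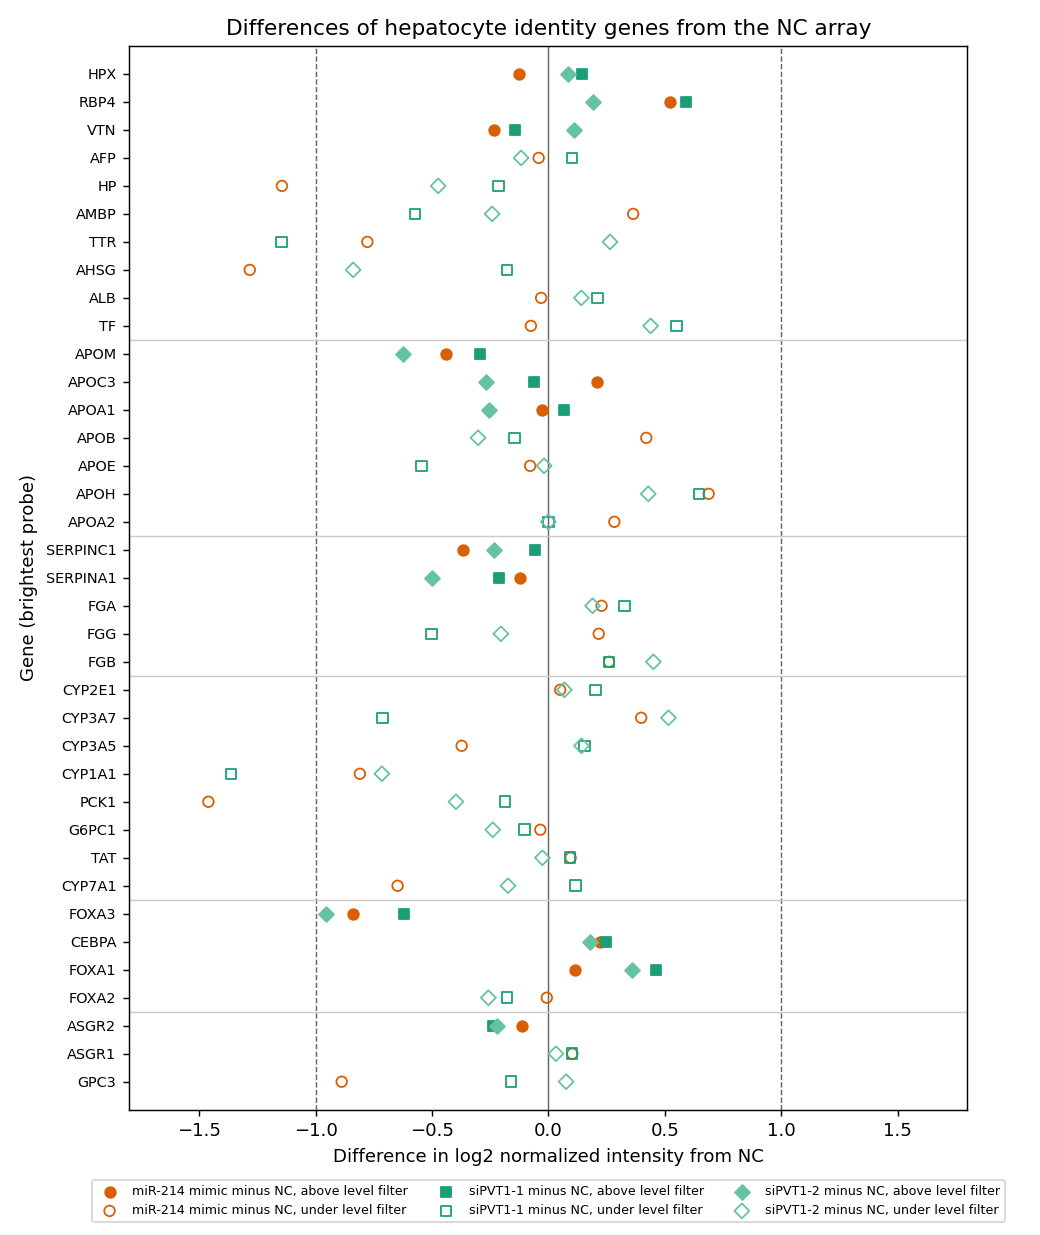
Difference in log2 normalized intensity from NC (x axis) of 37 hepatocyte identity genes by their brightest probe, on the miR-214 mimic, siPVT1-1 and siPVT1-2 arrays; filled symbols are genes above the level filter and open symbols genes under it. Dashed lines mark 2-fold. No filled symbol passes 2-fold, and the open symbols that do, for PCK1, AHSG and HP with the mimic and CYP1A1 and TTR with siPVT1-1, all lie below NC; APOA2 and CYP7A1 have values at the floor.

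Under the filter 5 members passed 2-fold by their brightest probe, all of them lower than NC, at levels where the size of a difference is uncertain. All genes under the filter leaned the same way, with 85 higher and 293 lower with the mimic and 45 higher and 238 lower with siPVT1-1. With the mimic 3 of 23 members under the filter and off the floor were lower and 0 higher, where 5.66% of all genes under the filter passed 2-fold. PCK1, the gatekeeper of gluconeogenesis, had 115 with the mimic, 277 with siPVT1-1, 215 with siPVT1-2 and 364 with NC, a difference of -1.46 for the mimic. AHSG had 73.2, 154, 85.7 and 204, a difference of -1.28 for the mimic and -0.84 for siPVT1-2. Haptoglobin (HP) had 187, 366, 272 and 475, a difference of -1.14 for the mimic. For each of the 3 genes the mimic array was lowest and the NC array highest, and each had 1 probe.

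With siPVT1-1 2 of 24 such members were lower and 0 higher, against 4.21% of all genes under the filter. CYP1A1, which detoxifies aromatic compounds, had 266 with the mimic, 184 with siPVT1-1, 261 with siPVT1-2 and 537 with NC. Its differences were -0.81, -1.36 and -0.71, so that NC stood above the other 3 arrays. Its bright neighbour CYP1A2 did not show this order, with differences of 0.69, -0.56 and -0.19. Transthyretin (TTR) had 177, 141, 338 and 355 by its brighter probe, differences of -0.78, -1.15 and 0.26. Its second probe, at almost the same percentile, had 227, 222, 181 and 270.2, with differences of -0.02, -0.07 and -0.19, so the probes of this gene did not give the same difference.

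With siPVT1-2 0 of 24 such members passed 2-fold by their brightest probe, against 4.4% of all genes under the filter. This count depended on the scaling: AHSG stood at -1.25 with intensities as deposited and at -1.01 with median centring, and CYP1A1 at -1.04 as deposited. With the mimic, CYP1A1 and TTR likewise passed 2-fold as deposited, both at -1.01. The second FGA probe had 146 with the mimic, 153 with siPVT1-1, 119.7 with siPVT1-2 and 325 with NC, with differences of -0.91, -0.88 and -1.03. The brighter FGA probe had 346, 376, 308 and 342, with differences of 0.23, 0.33 and 0.19. The FGA probes thus differed in sign on all 3 treated arrays.

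The siPVT1-1 and siPVT1-2 arrays, from duplexes named for the same RNA, differed at 2 of 24 members under the filter, where 2.23% of all genes under it did. TTR was lower with siPVT1-1 than with siPVT1-2 by its brighter probe (-1.41) and not by its second (0.12). CYP3A7 had 244 with siPVT1-1 and 540.0 with siPVT1-2, a difference of -1.23, beside 526 with the mimic and 452 with NC.

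Of 35 members off the floor on every array, 24 (68.6%) stayed within 1.5-fold of NC on all 3 treated arrays, as did 72.6% of 17148 genes off the floor. ALB stood at -0.03 with the mimic, 0.21 with siPVT1-1 and 0.14 with siPVT1-2, and AFP at -0.04, 0.10 and -0.12. GPC3 (-0.89) was lower with the mimic than with siPVT1-1 (-0.16) or siPVT1-2 (0.08), and APOH was above NC on each treated array (0.69, 0.65 and 0.43), all at under 2-fold.

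Outside the list, some other hepatocyte genes above the filter passed 2-fold. ASS1, which joins citrulline and aspartate in the urea cycle, had 46737 with the mimic, 42874 with siPVT1-1, 48356 with siPVT1-2 and 90982 with NC, differences of -1.07, -1.15 and -0.98. The acute phase gene SAA1 was higher with the mimic (1.13; 0.93 and 0.71 with siPVT1-1 and siPVT1-2), and the lipase cofactor APOC2 lower with siPVT1-1 (-1.17, beside -0.88 with the mimic and -0.26 with siPVT1-2). The tyrosine-degrading enzyme HPD stood at 0.59, 0.77 and 1.04. In the other plasma protein list 1 of 14 genes passed with the mimic, 1 with siPVT1-1 and 0 with siPVT1-2. Among other liver enzymes 1 of 13 passed on each array. Of all genes above the filter 4.79% passed with the mimic, 2.96% with siPVT1-1 and 2.53% with siPVT1-2. Lists of this size would hold few or none at those rates, so the named genes are not read as a trait of hepatocyte genes. None of the 11 other liver transcription factors, 4 transporters or 8 fetal liver and hepatoma genes passed 2-fold on any of the 3 arrays.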

How the data were processed

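Per the labels' protocols, total RNA was amplified, labelled with Cy5 and hybridised in 1 colour to OneArray Plus chips. The deposited values were linear intensities, with 74 to 131 of 28264 probes below 0 on an array. As for the scanner software and any background correction, they are not given in the sources used here. Median deposited intensities were 828.1, 835.9, 784.1 and 926.9 on the miR-214 mimic, siPVT1-1, siPVT1-2 and NC arrays.

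Intensities were quantile-normalized (limma 3.58.1, R 4.3.3), those below 64 were raised to 64, and log2 was taken. Probes were named from the platform annotation, and Entrez identifiers gave current RefSeq symbols: 25893 probes had 1 symbol, 0 several and 2371 none. A gene was its brightest probe by mean over 4 arrays. Genes at the floor on either array were not compared. With 1 array a group no test was run, and the number of arrays limits precision. The counting was tested on simulated data with larger changes planted in bright genes only, so changes near 2-fold and genes under the filter were not covered. Members and lists were chosen with earlier results of these data known. Intensities on all 4 arrays are given for members above the level filter, members 2-fold from NC by any probe, ALB, AFP, APOA1, TTR and members whose probes differ by over 30 percentile points. Of other lists the brightest and the 2-fold genes are named, some by percentile or difference only. Alternatives changed the scaling, floor, filter, probe rule and fold, and left out each array.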

Additional observations from a re-analysis of the deposited data

How the results depend on the processing

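No paired analysis was possible because each group holds 1 array. The median percentile of 29.4 was 31.3 with the mean of a gene's probes and 36.3 with its dimmest probe. With single arrays left out, an alternative chosen after seeing the data, it ranged from 29.3 to 30.4. Members under the filter numbered 25 to 27 under these settings, and 35 with the filter at the 75th percentile. Without a level filter 3 of 35 members passed 2-fold with the mimic, 2 of 36 with siPVT1-1 and 0 of 36 with siPVT1-2. Of all genes, 293 were higher and 596 lower of 17346 with the mimic. The counts were 178 and 421 of 17387 with siPVT1-1, and 228 and 336 of 17354 with siPVT1-2. By a 1.5-fold rule 1, 2 and 2 of the 12 members above the filter passed with the mimic, siPVT1-1 and siPVT1-2. Of all genes above the filter, 1009 were higher and 1005 lower of 10667 with the mimic. The counts were 717 and 688 of 10668 with siPVT1-1, and 797 and 619 of 10667 with siPVT1-2. By a 3-fold rule 0 members passed. Among the members above the filter, 1 passed 2-fold with siPVT1-2 with intensities as deposited (FOXA3). With the filter at the 75th percentile, 2 members were left, with medians of -0.40 with the mimic and -0.43 with siPVT1-2. With the mean of probes the siPVT1-2 median was 0.013; the cause of these shifts was not tested. Median centring moved the median difference from NC of all genes above the filter to 0.11, 0.11 and 0.16 with the mimic, siPVT1-1 and siPVT1-2. All genes above the filter split into 351 higher and 203 lower, 184 and 146, and 277 and 78 with this centring, against 208 and 303, 133 and 183, and 142 and 128 by quantile normalization. As deposited the splits were 175 and 319, 94 and 215, and 95 and 161. Of 216 single differences recomputed for 18 members, 0 reversed past 2-fold, 0 fell under 2-fold and 6 newly passed it: FOXA3 above the filter, and AHSG, CYP1A1 and TTR under it.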
